A study of Mus musculus with 16 samples.

Results

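Chromatin regulators of 12 gene families (Kdm, Kmt, Kat, Hdac, Setd, Smarc, Arid, Chd, Brd, Ino80, Dnmt and Tet) were followed in libraries labelled as duodenal epithelium, from mice with and without EphB4 in intestinal epithelial cells. The series' design text speaks of tissue of the proximal small intestine instead. Members were the protein-coding genes of the authors' deposited table whose names begin with one of these prefixes. This gave 12 of the 2438 genes in the table. Katnal1, a katanin gene, and Chdh, choline dehydrogenase, share a prefix but belong to other families and were left out. The data came from 16 RNA sequencing libraries, 9 from Ephb4 flox/flox mice (flox, replicates 1 to 7, 9 and 10) and 7 from mice with Ephb4 knocked out in intestinal epithelial cells (KO, replicates 1 to 5, 7 and 8). Both groups received high fat feeding from an age of 8 weeks, for 19 weeks. The sources used here do not give the recombinase that deleted Ephb4 or the sex of the mice. Y-linked Kdm5d stood at 283.2 normalised counts or more in all 16 libraries, a level that points to males in both groups. The design text counts as many mice as libraries in each group without tying a library to a mouse, so the p-values measure the spread between these libraries.

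Chromatin regulators act in teams. Writers such as methyltransferases and acetyltransferases place marks on histones or DNA, erasers such as demethylases and deacetylases remove them, readers such as bromodomain proteins bind them, and remodelling complexes use ATP to move nucleosomes. In the intestine these proteins act as stem cells at the crypt base divide and their daughters turn into absorptive and secretory cells on the villus.

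The deleted gene was checked first. Ephb4 (chr5:137350109-137378669, GRCm38, plus strand) had a lowest, median and highest normalised count of 102.7, 161.8 and 353.8 in flox and of 23.3, 28.5 and 84.7 in KO. Its mean stood at 210.5 ± 94.4 normalised counts in flox (SD, n = 9) and at 36.6 ± 21.7 in KO (SD, n = 7), with no overlap. Its log2 difference was -2.51 (exact permutation p of 8.74e-05, two-sided, the smallest that 11440 splits can give). Each library held between 3592468 and 5316273 reads in listed genes, and the total depth is unknown. A gene is called listed when it is in the deposited table, which was selected on this comparison. Of the 16488 genes the authors adjusted over 14.8% were listed. Of 10 general markers of the intestinal epithelium 4 were listed, all lower in KO, and their summed level ran from 147587 to 203915 in flox and from 108428 to 146524 in KO. Of 20 proliferation markers 14 were listed, all higher, with sums of 1036 to 3317 in flox and 2579 to 5590 in KO. Of 63 markers of lymphoid, myeloid, mast, stromal and endothelial cells 10 were listed, all higher, with sums of 334.4 to 789.1 in flox and 468.5 to 2114 in KO. None of these 10 was at 0 in every library, and the other 53 were not analysed here. Of 22 exocrine pancreas markers 18 were listed, all lower in KO. Their sums were 331.6 to 135959 in flox, with flox replicates 4, 6, 7, 9 and 10 at 6452 or more, and 317.3 to 1575.5 in KO. All these sums hold only listed markers, each selected for differing between these groups, so they are no independent measure of cell make-up. What part these cells had in the differences of the members was not tested beyond the covariate fits and left-out libraries given further on. Those covariate scores hold only the same listed markers. In such bulk samples fewer cells of a type and less RNA per cell cannot be told apart.

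The 12 members were split between higher and lower levels in KO. The histone deacetylases Hdac2 and Hdac9, the DNA methyltransferase Dnmt1, the Y-linked demethylase Kdm5d and the remodelling ATPase Smarca5 were higher. The demethylases Kdm4b, Kdm5c and Kdm6b, the acetyl-lysine reader Brd2 and the remodelling subunits Arid1b, Smarcc2 and Ino80b were lower. Most differences were small. The absolute log2 fold change in the authors' deposited table had a median of 0.29 over the 12 members and 0.46 over all 2438 genes. Only Hdac9, at 2.19, exceeded 1 (1 of 12, 8.33%, against 17.9% of all genes in the table). The 2 groups separated completely in 0 of the 12 members and in 177 of the 2438 genes in the table (7.26%). With only 12 genes, 0 lies near that share and is not a result about the members.

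The table itself had been selected on this comparison, since its largest adjusted p was 0.0497. Listed genes made up 14.8% of the 16488 genes the authors adjusted over, 6.97% as higher and 7.81% as lower in KO. The GENCODE M21 annotation holds 109 protein-coding genes of the 12 families, and 12 of them were listed (11.0%), 5 as higher (4.59%) and 7 as lower (6.42%). These shares lie near or under the background, so the number of listed members is not a result about these families. Unlisted genes were not analysed here, and whether each of them was tested is unknown.

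By role, 4 of 18 histone demethylase genes were listed, 2 of 11 deacetylases, 1 of 9 bromodomain readers, 1 of 8 DNA methylation genes and 4 of 37 genes for remodelling ATPases and subunits. The table held 0 of the 18 histone methyltransferase genes (Kmt and Setd) and 0 of the 8 acetyltransferase genes (Kat). No count at an unadjusted p can be given for them, because unlisted genes were not analysed here. By role the listed share ran from 0% to 22.2%, against 14.8% of the 16488 genes the authors adjusted over. With so few genes in each role, these counts are not a result about any role. The sizes were checked with limma on log2(normalised count + 1). Its p-values were adjusted (Benjamini-Hochberg) across 16488 genes, and unlisted genes entered with a p of 1. In it 8 of the 12 members passed at an adjusted p under 0.05, 3 higher and 5 lower. TMM scaling on the listed genes turned this split to 5 higher and 1 lower, while over all genes fitted the calls went from 449 higher and 820 lower to 724 and 189. Of the 16488 genes 7.7% passed limma, 2.72% as higher and 4.97% as lower. Of the 2339 listed genes fitted 54.3% passed, 19.2% as higher and 35.1% as lower. Because the members were selected on these libraries, this check measures sizes and adds no separate support. The quantile and GC fits below also used the listed genes alone, so a turned sign cannot tell an artefact from an effect.

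**Figure D1:**
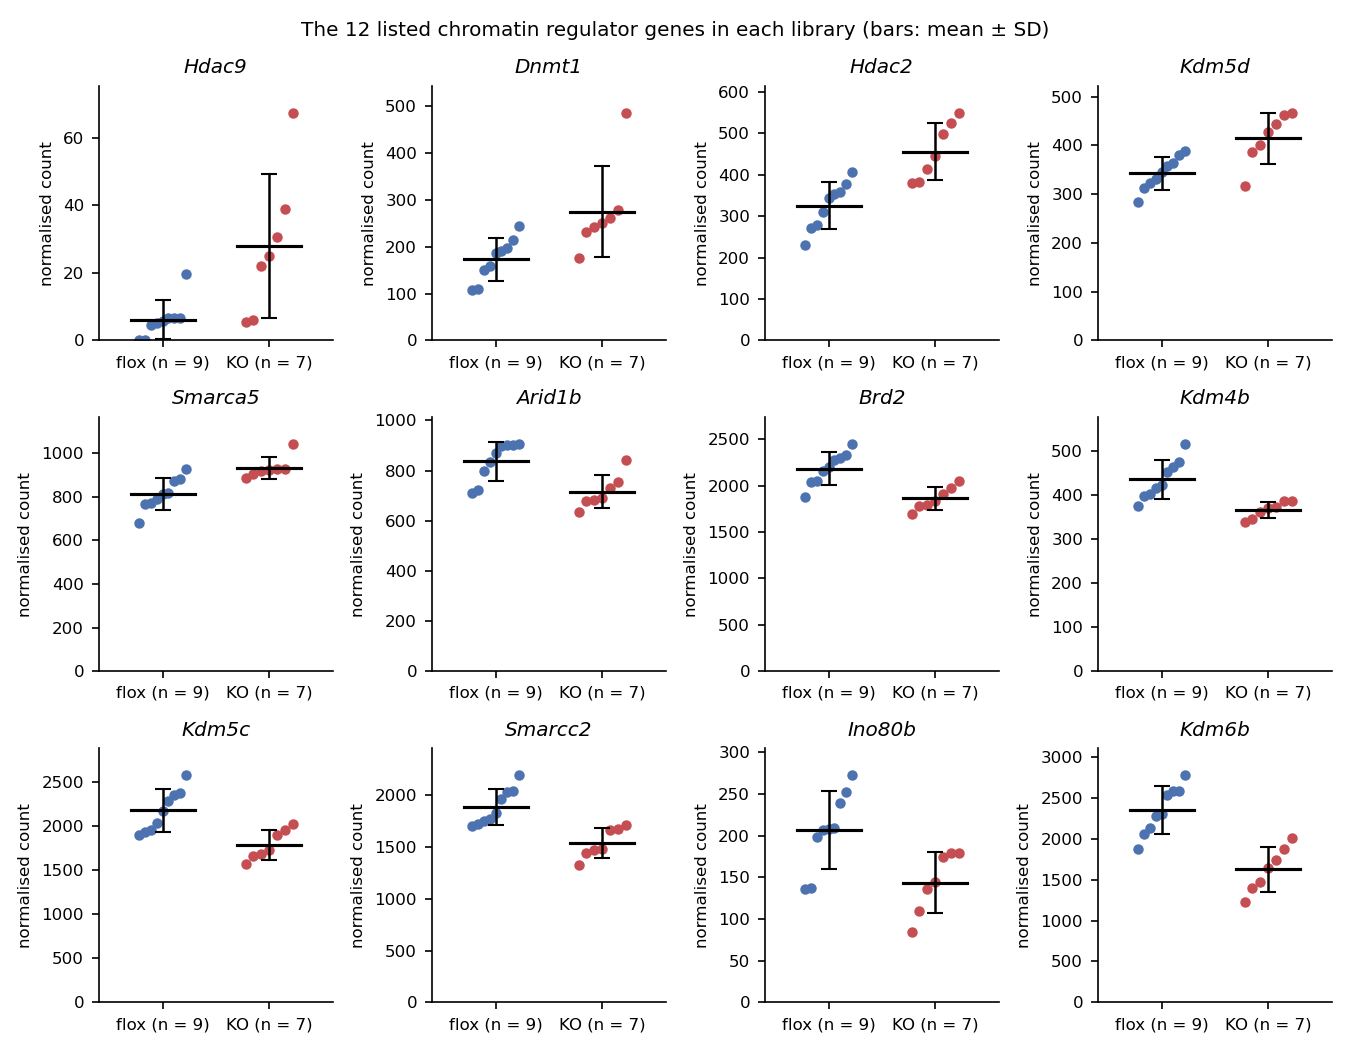
Normalised count of each of the 12 members in every library, with flox in blue (n = 9) and KO in red (n = 7). Horizontal lines are means and error bars are SD. The groups overlap in every panel, and the 5 genes at the start, from Hdac9 to Smarca5, have the higher mean in KO.

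Levels between genes were compared per kilobase of the gene length in the deposited table, as the mean normalised count per kb in flox. Smarcc2 (340.2 per kb), Kdm6b (337.4), Kdm5c (306.5) and Brd2 (299.6) were the most abundant, and the ranges of neighbours in this order overlapped across the flox libraries. Ino80b followed at 129.6, Smarca5 at 104.6, Kdm4b at 88.9, Hdac2 at 72.8 and Arid1b at 66.5 per kb, again with overlapping neighbours. Dnmt1 (23.5 per kb) and Kdm5d (22.6) did not differ beyond their spread, and Hdac9 was far lower, at 0.418 per kb. The 4 most abundant members were all lower in KO, and the rarest was higher. Among all listed genes the direction went with the mean level in the same way. Among the 768 listed genes whose mean reached 1000 normalised counts 92.7% were lower, and among the 482 under 50 the share was 9.54%.

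Of the erasers, Kdm6b showed the lowest adjusted p among the members. Kdm6b (chr11:69398508-69413675, minus strand) is a demethylase of the histone mark that polycomb lays down. Its normalised count was lowest at 1870, with a median of 2305 and a highest value of 2775, in flox, and 1227, 1646 and 2014 in KO. All 7 KO libraries lay under the flox median, and 5 lay under every flox library. The mean fell from 2346 ± 294 (SD, n = 9) to 1626 ± 277 (SD, n = 7), 1.44-fold lower. In the authors' deposited table the log2 fold change was -0.53 (adjusted p = 0.000194). In limma the log2 difference was -0.54 ± 0.10 (SE, adjusted p = 0.00917). Kdm6b passed limma without each single library in turn. It was lower under each of the 30 alternatives run, with log2 differences from -0.60 to -0.21 and adjusted p-values from 0.00013 to 1.

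Kdm5c and Kdm5d are paralogs on the sex chromosomes that remove a methyl mark found at active promoters. Kdm5c (chrX:152233020-152274535, plus strand) stood at 1896, 2178 and 2579 (lowest, median and highest normalised count) in flox and at 1566, 1731 and 2026 in KO. All 7 KO libraries were under the flox median, and 4 were under every flox library. Its mean was 1.22-fold lower in KO, with an adjusted p of 0.0104 in the authors' deposited table and 0.0362 in limma, which it passed without 8 of the 16 libraries in turn, and quantile normalisation turned its sign. Kdm5d (chrY:897788-956786, plus strand) went the other way, at 283.2, 346.2 and 388.8 in flox and at 316.3, 427.4 and 466.1 in KO. In 5 KO libraries Kdm5d exceeded every flox library, and KO replicate 3 was the lowest of its group. The mean was 1.21-fold higher in KO, with an adjusted p of 0.0334 in the authors' deposited table and 0.0679 in limma, and removal of the GC trend turned its sign.

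The ratio of this X and Y pair, whose members were listed in opposite directions, was also taken per library. Kdm5c held 6.41 ± 0.887 times the normalised count of Kdm5d in flox (SD, n = 9) and 4.36 ± 0.532 times in KO (SD, n = 7). The ratio ran from 5.21 to 8.00 in flox and from 3.71 to 5.33 in KO, so that the groups nearly separated. Their sum was 2522 ± 246 in flox and 2204 ± 204 in KO. These ratios describe genes already selected on this contrast and were not tested. Kdm5d and Uty, the Y-linked homologue of Kdm6a, were the only Y chromosome genes in the table, both higher in KO. The sources used here do not say how reads matching both paralogs were counted, so their split is uncertain.

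**Figure D2:**
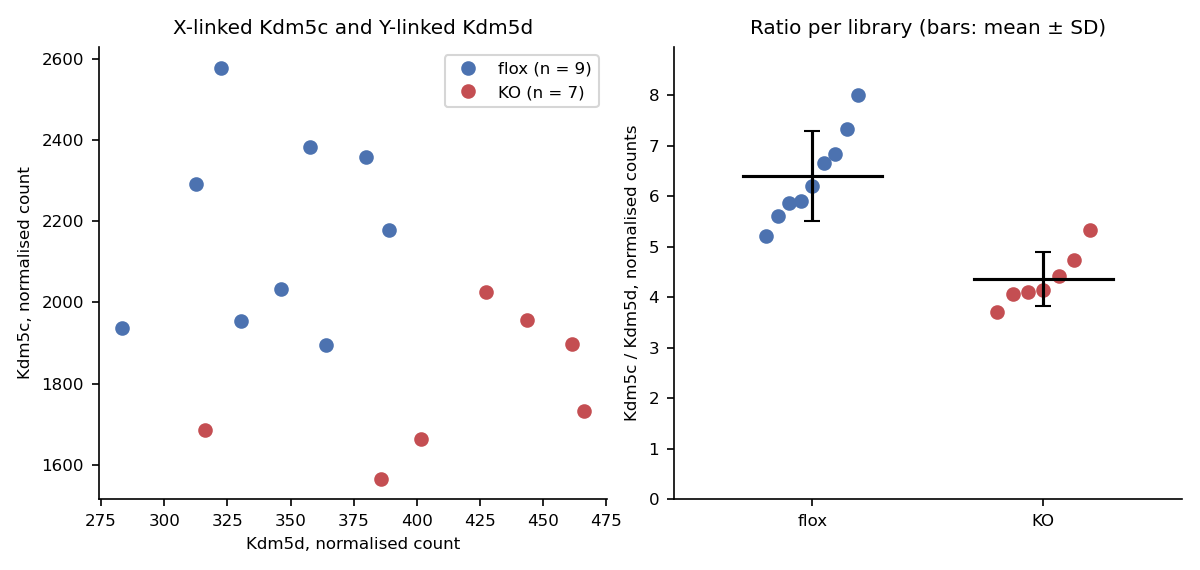
Normalised counts of Kdm5c against Kdm5d, 1 point per library, and the ratio of Kdm5c to Kdm5d per library with mean and SD (flox blue, n = 9; KO red, n = 7). Mean ratios were 6.41 in flox and 4.36 in KO, and only the highest KO library, at 5.33, lies above the lowest flox library, at 5.21.

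Kdm4b (chr17:56326062-56402870, plus strand) acts on a methyl mark of heterochromatin. Its normalised counts were 374.4, 422.7 and 514.9 in flox and 339.4, 370.5 and 386.3 in KO. Of the 9 flox libraries 8 lay above every KO library, and the spread was narrow in KO, with an SD of 18.3 against 44.1 in flox. The mean was 1.19-fold lower in KO, with an adjusted p of 0.0178 in the authors' deposited table and 0.0453 in limma, which it passed without 4 of the 16 libraries in turn. Removal of the GC trend turned its sign.

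Both listed deacetylases were higher. Hdac2 (chr10:36974544-37001889, plus strand) is a class I enzyme of the Sin3, NuRD and CoREST corepressors, and its normalised counts were 230.1, 344.3 and 406.4 in flox against 381.0, 445.1 and 548.8 in KO. Of the 9 flox libraries 8 lay under every KO library, and 5 KO libraries lay above every flox library. The mean was 325.6 ± 57.0 in flox (SD, n = 9) and 1.40-fold higher in KO, at 456.4 ± 68.3 (SD, n = 7). The adjusted p was 0.00297 in the authors' deposited table and 0.0193 in limma, where Hdac2 passed without each single library in turn. With the GC trend removed its log2 difference went from 0.49 to -0.033.

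Hdac9 (chr12:34047580-34917095, minus strand), a class IIa deacetylase that works mainly as a partner of transcription factors, was nearly absent from flox. Its normalised counts were 0, 5.76 and 19.8 in flox and 5.60, 25.1 and 67.3 in KO. In flox 2 libraries held no read, which allows up to 3 reads each, and KO replicates 2 and 3 stood within the flox range. The mean was 4.56-fold higher in KO, at 28.0 ± 21.2 (SD, n = 7) against 6.13 ± 5.76 (SD, n = 9). Its adjusted p was 0.00449 in the authors' deposited table and 0.0488 in limma, which it passed without 3 of the 16 libraries in turn. With the non-epithelial marker score as a covariate the log2 difference went from 2.12 to -0.10. That score is the mean log2 level of the 10 listed non-epithelial markers, all selected on this same contrast. In that fit the part of these cells therefore cannot be told apart from the group.

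Dnmt1, Ino80b and Brd2 were the 3 members whose RefSeq promoter windows (GRCm38.p6) held any of the motifs searched, and the stretches around those motifs are shown for that reason. Windows ran from 250 bases before a start site to 50 after it, and 10 of the 12 members had 15 windows among the 32851. Motifs were searched on both strands as exact letters: E2F (TTTCCCGC or TTTGGCGC), NRF1 (the capitals in the Brd2 stretch), ETS (CCGGAAGT), YY1 and SP (GGGGCGGGG). No match overlapped another in the member windows. Capitals mark the motif, and each stretch reads 5′ to 3′ on the gene's strand.
Dnmt1: GCGCATGCGCggggcagcgTTTGGCGC
Ino80b: ttgccaggcgCCGGAAGTagccggttat
Brd2: gcacacccttGCGCATGCGCtatgtgtttc
The Dnmt1 stretch (chr9:20952583-20952609, minus strand) holds an NRF1 motif 14 bases and an E2F motif 33 bases after a start site, in annotated 5′ UTR. The Ino80b stretch (chr6:83125157-83125184, minus strand) holds an ETS motif 55 bases before the RefSeq start and lies in an exon of longer GENCODE transcripts. In Brd2 (chr17:34122605-34122634, minus strand) an NRF1 motif begins 17 bases before a start site, in an exon of a noncoding GENCODE transcript of the gene. E2F letters occurred in 1 of the 15 member windows and 1.56% of all windows, NRF1 in 3 and 0.971%, and ETS in 1 and 3.89%. The 3 windows with NRF1 letters belong to Brd2 and Dnmt1 alone. Member windows had a median of 17 CpG and 58.7% GC, against 7 and 52.7% in all windows. YY1 and SP letters occurred in 0 of the 15 and in 0.633% and 11.4% of all windows. A match is a description of the letters and no evidence of binding.

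Dnmt1 (chr9:20907209-20959888, minus strand), whose stretch carries both an NRF1 and an E2F motif, copies DNA methylation onto the new strand after replication. Its normalised counts were 107.1, 185.9 and 243.8 in flox and 176.4, 251.2 and 484.4 in KO. In 4 KO libraries Dnmt1 exceeded every flox library, and KO replicate 1 stood far above the others of its group. That library also held the highest KO sums of non-epithelial markers (2114, with the next at 1063), of stromal markers (1069 against 444.5) and of proliferation markers (5590 against 4398), whose part in its Dnmt1 level was not tested. The mean rose from 173.0 ± 45.8 (SD, n = 9) to 274.8 ± 97.8 (SD, n = 7), 1.59-fold. Its adjusted p was 0.0127 in the authors' deposited table and 0.0466 in limma. Its log2 difference was 0.65 with all libraries and 0.50 without KO replicate 1, and it passed limma without 4 of the 16 libraries in turn. Over the 30 alternatives run for Dnmt1 the log2 difference ranged from 0.13 to 0.93. The lowest value came when the fit also held the level of the listed non-epithelial markers. Those markers were themselves selected on this contrast, so that fit cannot separate their part from the group.

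The reader Brd2 (chr17:34112023-34122634, minus strand), a bromodomain protein of the BET family that binds acetylated histones, was lower. Its normalised counts were 1874, 2202 and 2444 in flox and 1693, 1833 and 2054 in KO. All 7 KO libraries lay under the flox median, and 4 lay under every flox library. The mean was 1.17-fold lower, with an adjusted p of 0.00866 in the authors' deposited table and 0.0396 in limma, which it passed without 5 of the 16 libraries in turn. Quantile normalisation and GC removal both turned its sign. Within 500 kb of Brd2 stood 12 other listed genes, among them Btnl1, Btnl6, Psmb8, Tapbp and H2-K1, and all 12 were lower in KO. On chromosome 17 as a whole 112 of 163 listed genes were lower. Arid1b and Kdm4b lie on the same chromosome. Within 500 kb Arid1b had 0 listed neighbours and Kdm4b had 9, with 2 higher and 7 lower. Around Kdm6b 4 were higher and 6 lower, around Smarcc2 5 and 5, around Dnmt1 3 and 4, and around Ino80b 1 and 1. Kdm5d had 1 listed neighbour, higher in KO, and Hdac2, Hdac9, Kdm5c and Smarca5 had 0.

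Of the 4 remodelling genes 3 were lower and 1 higher. Smarcc2 (chr10:128459248-128490482, plus strand), a core scaffold subunit of the BAF complex, had normalised counts of 1699, 1830 and 2193 in flox and 1330, 1479 and 1711 in KO. Of the 7 KO libraries 6 lay under every flox library. The mean was 1.23-fold lower, with an adjusted p of 0.00355 in the authors' deposited table and 0.0223 in limma, which it passed without 14 of the 16 libraries in turn, and quantile normalisation turned its sign. Arid1b (chr17:4994332-5347656, plus strand), a large DNA-binding subunit of one form of BAF, stood at 710.8, 869.1 and 905.2 in flox and at 634.3, 691.0 and 840.9 in KO. Its mean was 1.17-fold lower in KO, with an adjusted p of 0.0358 in the authors' deposited table and 0.0674 in limma, and GC removal turned its sign.

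Ino80b (chr6:83121765-83125431, minus strand) encodes a subunit of the INO80 remodeller. Its normalised counts were 136.2, 207.9 and 272.2 in flox and 84.3, 144.4 and 179.2 in KO. Of the 9 flox libraries 7 lay above every KO library. The mean was 1.44-fold lower, with an adjusted p of 0.0283 in the authors' deposited table and 0.0687 in limma. Smarca5 (chr8:80698507-80739497, minus strand), the motor of the ISWI remodellers, had the smallest change of the 12. It stood at 677.8, 814.6 and 926.3 in flox and at 887.6, 923.9 and 1040 in KO, with 8 flox libraries under every KO library. Its mean was 1.15-fold higher, with an adjusted p of 0.0341 in the authors' deposited table and 0.0670 in limma. With the GC trend removed it was lower in KO instead, by -0.41 on the log2 scale and with an adjusted p of 0.0027 in limma, where its 30 alternatives ranged from 0.0027 to 1.

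Arid1b and Smarca5 entered the table with the largest adjusted p-values of the members, 0.0358 and 0.0341.

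The direction of the members went with base composition. Median transcript GC content was 41.9% over the 5 higher and 56.6% over the 7 lower members. Over all listed genes the medians were 46.6% for the higher and 55.4% for the lower genes. Smarca5 (38.9%), Hdac2 (41.3%) and Kdm5d (41.9%) had the lowest GC content of the members, and their signs turned when the GC trend was removed within each library. Arid1b, Brd2 and Kdm4b, at 56.7%, 56.0% and 58.3%, turned the other way. In that analysis 1 member passed limma, Smarca5, as lower, and of all 2339 genes fitted 82 passed as higher and 197 as lower. That trend was fitted on the listed genes alone, whose direction itself went with GC content. The turned signs therefore cannot tell an artefact from an effect. Whether GC content played a part in these differences was not tested.

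Several members lay close to the bulk of the table. The median log2 difference in limma was -0.23 over the 12 members and -0.25 over the 2339 listed genes fitted. Set against the latter median, Arid1b, Brd2 and Kdm4b differed by 0.02, 0.02 and 0.01, and Kdm5c and Smarcc2 by -0.03 and -0.05. Kdm6b and Ino80b lay lower than that median by -0.29 and -0.28, and Hdac9, Dnmt1 and Hdac2 lay above it by 2.37, 0.90 and 0.74. TMM scaling on the listed genes moved the median of all listed genes by 0.14, and Kdm6b was then the 1 member that passed as lower. Quantile normalisation moved it by 0.25, and Hdac2 and Smarca5 passed as higher and Ino80b as lower. Over all 2335 genes fitted with quantile normalisation 192 passed as higher and 168 as lower. Both scalings used the listed genes alone, all selected on this contrast.

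**Figure D3:**
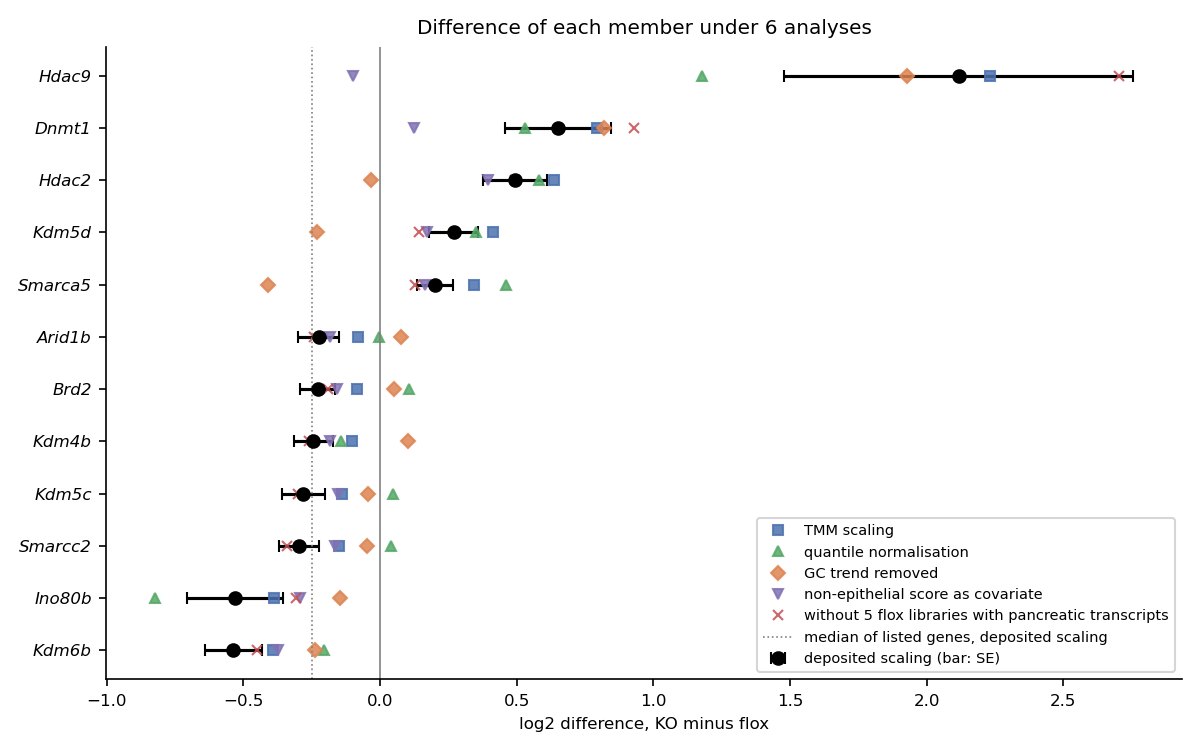
Log2 difference of KO minus flox for each member under 6 analyses (x axis). Black points are the limma fit on the deposited scaling with SE, and the dotted line is the median of the listed genes at -0.25. Kdm6b and Ino80b stay below 0 and Dnmt1 above 0 in all 6 analyses, while Smarca5, Kdm5d and Hdac2 cross 0 with the GC trend removed and Hdac9 with the non-epithelial score.

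No member passed limma when the non-epithelial score was a covariate, where 2 of 12 had an unadjusted p under 0.05 and, of all listed genes, 3 passed as higher and 4 as lower. None passed without the 5 flox libraries that held pancreatic transcripts (chosen after seeing the data), where 9 of 12 had an unadjusted p under 0.05. Of all 2341 genes fitted without them 5 passed as higher and 6 as lower, and 1708 had an unadjusted p under 0.05. The median log2 difference of the members was -0.16 in the first case and -0.22 in the second. Both fits rest on markers selected on this contrast, so they cannot tell cell make-up apart from the group. On recovered reads edgeR called 8 members and DESeq2 called 12. The submitters name DESeq2, and the table was selected on these libraries, so the count of 12 was nearly fixed in advance. Over all 2339 genes fitted edgeR called 505 as higher and 823 as lower, and DESeq2 872 and 1240, so most of the table passed as the members did.

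Across the 16 libraries, 24 relations were tested between the members and 2 marker scores, after each value had been centred on its group mean. A score is the mean log2 level of its listed markers. Relations to the enterocyte and exocrine pancreas scores were also computed, but not tested or counted in the adjustment. Their r ran from -0.50 (Smarca5, pancreas) to 0.54 (Kdm6b, enterocytes). Rank correlation (rho) was Pearson's r of the ranks of the centred values, with the ranks centred again by group. Dnmt1 tracked the proliferation score, with Pearson's r of 0.87 (permutation p = 2e-05, adjusted 0.00048) and rho of 0.84 (permutation p = 0.00022, adjusted 0.00264). Its r was 0.93 within flox and 0.80 within KO, and 0.81 without the 2 libraries farthest from the median score. Hdac2 followed the same score with r of 0.75 (permutation p = 0.00218, adjusted 0.0131) and rho of 0.76 (permutation p = 0.0018, adjusted 0.0144). Within each group its r was 0.75, and without the 2 farthest libraries 0.69.

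Kdm5c ran against the proliferation score, with r of -0.86 (permutation p = 0.00012, adjusted 0.00144) and rho of -0.88 (permutation p = 5e-05, adjusted 0.0012). Its r was -0.83 within flox, -0.92 within KO and -0.82 without the 2 farthest libraries. Hdac9 followed the non-epithelial score, with r of 0.76 (permutation p = 0.00038, adjusted 0.00304), 0.63 within flox, 0.96 within KO and 0.69 without the 2 farthest libraries. Its rho was 0.56 (permutation p = 0.0293, adjusted 0.127), which missed the threshold. The other 20 relations had adjusted p-values for r of 0.088 or more. Depth and cell make-up are common to all genes of a library, and their part in these relations was not tested.

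**Figure D4:**
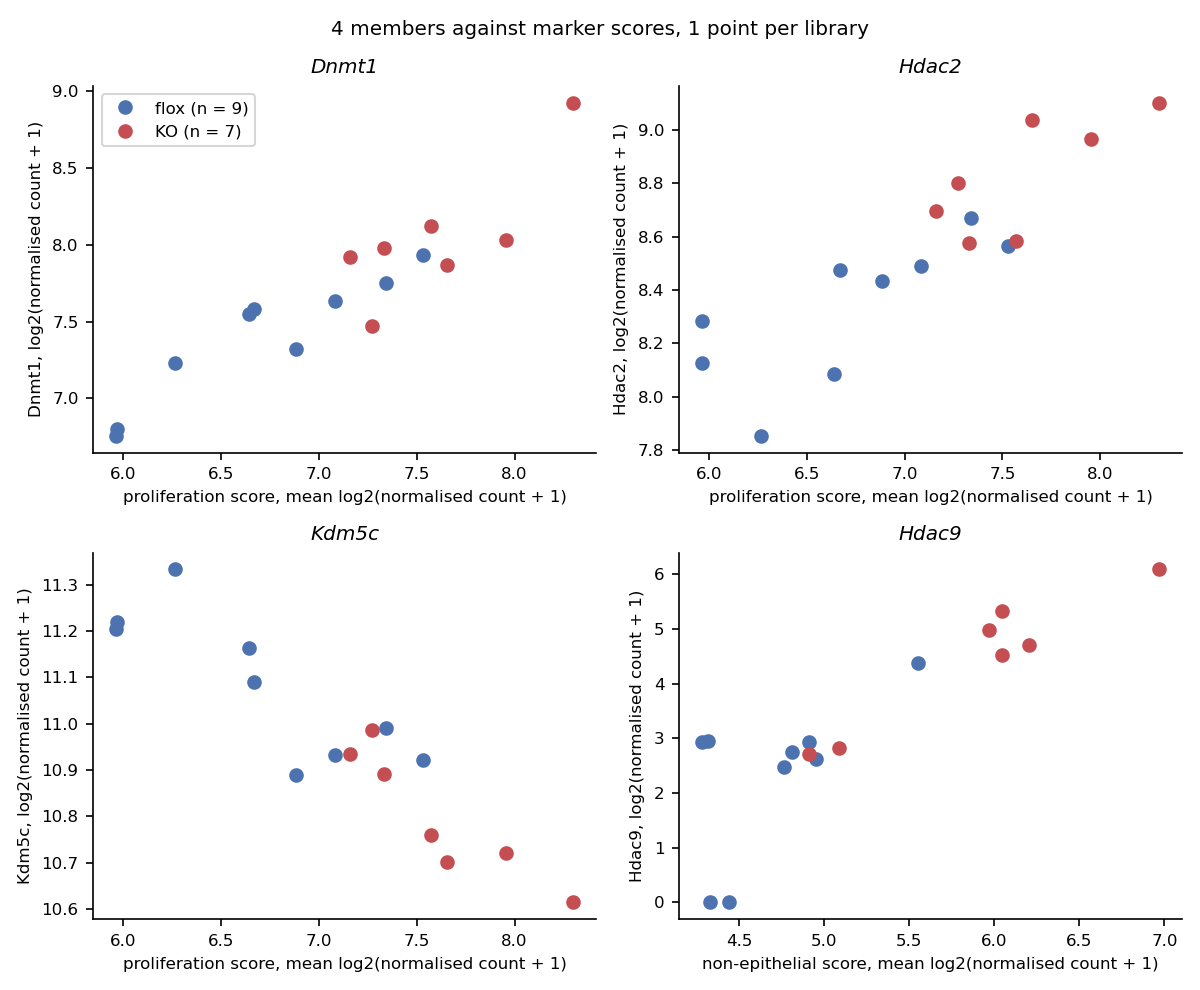
Log2 level of Dnmt1, Hdac2 and Kdm5c against the proliferation score and of Hdac9 against the non-epithelial score, 1 point per library (flox blue, n = 9; KO red, n = 7). Dnmt1 and Hdac2 climb and Kdm5c declines along the score within both groups, with r after centring of 0.87, 0.75 and -0.86.

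Members of one direction did not form a single block across libraries. As a description over the 16 libraries, which share depth and composition, the median centred r was 0.50 over the 21 pairs of lower members, 0.20 over the 10 pairs of higher members and -0.32 over the 35 mixed pairs. Brd2 and Kdm6b were the closest pair (r of 0.81), and Hdac2 and Kdm5c the most opposed (r of -0.79). The genes outside the families whose centred levels were most like the mean of the 12 members were Ryr1 (r of 0.90), C1ra (0.89) and Lynx1 (0.88), all 3 with means under 30 normalised counts. That mean weighs each member on the log2 scale, so Hdac9, with the widest log2 spread, counts most in it.

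Among 181 other chromatin genes in 8 lists, 26 were listed (14.4%, against 14.8% of all genes), 20 higher and 6 lower. Of the 16488 genes the authors adjusted over 6.97% were listed as higher and 7.81% as lower. Whether each of the 181 was tested by the authors is unknown, and the split by direction was not tested. In each of the 26 the groups overlapped. Of 20 genes of heterochromatin and methyl-DNA binding 5 were listed, all higher. Uhrf1, which guides Dnmt1 to replicated DNA, stood at 79.3 ± 44.8 in flox (SD, n = 9) and 171.5 ± 68.8 in KO (SD, n = 7), 2.16-fold higher. The remodeller Hells was 1.78-fold higher, the heterochromatin remodeller Atrx 1.34-fold, the DNA repair glycosylase Mbd4 2.16-fold and Mbd5 1.27-fold. Mbd4 was low, with mean normalised counts of 14.5 in flox and 31.3 in KO. Of 15 histone chaperones 4 were listed, all higher, with Nap1l1 2.95-fold, Anp32e 1.51-fold, Npm1 1.40-fold and Nasp 1.33-fold.

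Of 26 COMPASS partners and other histone methyltransferases 4 were higher and 1 lower. Suv39h2, a heterochromatin methyltransferase, was 2.19-fold higher, Psip1 1.75-fold, the arginine methyltransferase Prmt5 1.47-fold and Nsd2 1.19-fold, while Ehmt2 was 1.21-fold lower. Suv39h2 was low, with mean normalised counts of 12.5 in flox and 27.4 in KO. Of 22 genes of deacetylase complexes and sirtuins 1 was higher and 3 lower. Rbbp7, a histone-binding partner of Hdac2, was 1.30-fold higher, and its corepressor partners Sin3b and Gatad2a were 1.25-fold and 1.16-fold lower, beside the deacetylase Sirt2 at 1.2-fold lower. Of 31 polycomb genes Phf19 and Cbx6 were higher and Phf1 lower. Of 26 acetyltransferase complex genes Meaf6 was higher and Msl1 lower. Of 30 remodeller partners only Bcl7a, a BAF subunit, was listed, 1.83-fold higher, and of 11 genes of cohesin and CTCF Smc3 and Pds5b were 1.29-fold and 1.32-fold higher.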

How the data were processed

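The submitters' processing notes name GRCm38 (mm10) and the tools DESeq2 (1.20.0), HISAT2 (2.0.5) and featureCounts (1.5.0-p3), without settings. Each library's deposited signal is a normalised count: dividing by 1 value per library turned 100% of its values into whole reads (tolerance 0.0001 reads). An automatic check could not test this for KO replicates 1 and 3. The authors deposited a log2 fold change of KO over flox, a p-value and an adjusted p-value per gene, and the deposited gene length gave levels per kb. limma 3.58.1 (trend, robust) was run on log2(normalised count + 1) for genes with a mean of at least 10. A fold change on this scale understates low genes. edgeR 4.0.16 and DESeq2 1.42.0 were run on recovered reads. All 3 were tested on simulated data. Relations used 100000 permutations within groups. The members and lists were chosen with earlier results of these data known. Named genes were all 12 members, with the 3 largest changes per role and every lower member given in full. Smarca5, outside that rule, was given in full after its values were seen. The 3 promoter stretches were shortened to 30 bases or fewer. Scaling, pseudocount, filter, covariates, block and left-out libraries were varied.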

Additional observations from a re-analysis of the deposited data

Results flagged for a closer look

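In 26 tests for a library far from the rest of its group, 4 were positive, where chance gives about 1 in 20. KO replicate 1 held 484.4 normalised counts of Dnmt1, with the next KO library at 277.4 and a group median of 251.2. The same library held 84.7 of Ephb4 against 37.3 in the next and a median of 28.5, and it held the highest KO sum of non-epithelial markers, 2114 against 1063 in the next. Flox replicate 2 held 19.8 of Hdac9, while the next flox library held 6.69. KO replicate 5 held 1040 of Smarca5, above 927.8 in the next.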

How the results depend on the processing

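With all libraries limma passed 3 higher and 5 lower members. These counts became 5 and 1 with TMM scaling, 2 and 1 with quantile normalisation, 1 and 1 with the pancreas score as covariate, and 0 and 1 with the GC trend removed. They were 0 and 0 with the non-epithelial score as covariate, and again when the 5 pancreas-bearing flox libraries were left out. DESeq2 on recovered reads gave 5 and 7, which the selection of the table had nearly fixed in advance. Without KO replicates 1 and 3, edgeR gave 1 and 1 and DESeq2 3 and 3. Over all genes fitted the higher and lower calls were 449 and 820 with all libraries, 724 and 189 with TMM scaling, 192 and 168 with quantile normalisation, 128 and 280 with the pancreas score, 82 and 197 with the GC trend removed, and 872 and 1240 by DESeq2. They were 3 and 4 with the non-epithelial score, 5 and 6 without the pancreas-bearing flox libraries, and 124 and 233 by edgeR and 407 and 750 by DESeq2 without KO replicates 1 and 3. The 2 fits without those KO libraries and the flox libraries left out were chosen after seeing the data. The median log2 difference of the members, -0.23, was 0.077 with quantile normalisation and -0.039 with the GC trend removed. Signs turned for Brd2 (0.11), Kdm5c (0.047) and Smarcc2 (0.042) with quantile normalisation and for Hdac9 (-0.10) with the non-epithelial score. With the GC trend removed they turned for Brd2 (0.050), Hdac2 (-0.033), Kdm4b (0.10), Kdm5d (-0.23), Arid1b (0.076) and Smarca5 (-0.41). The scaling, GC and score fits used only genes selected on this contrast, so a turned sign cannot tell an artefact from an effect. The causes were not tested. Ephb4 passed in each alternative run for it.

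Leaving out 1 library at a time gave 1 to 4 higher and 1 to 6 lower members. The calls over all genes fitted moved as well, from 449 higher and 820 lower with all libraries. They were 153 and 365 without KO replicate 7, 596 and 866 without KO replicate 2, and 551 and 902 without flox replicate 2. A member that no longer passed is therefore not a result about that member alone. Without KO replicate 2 the same 8 members passed as with all libraries. Hdac2 and Kdm6b passed each time. They were joined by none without KO replicate 5 or 7, and by Smarcc2 alone without KO replicate 1, flox replicate 3 or flox replicate 10. Kdm5c and Smarcc2 joined without KO replicate 4, Ino80b and Smarcc2 without flox replicate 1, and Arid1b and Smarcc2 without flox replicate 4. Hdac9, Kdm5d and Smarcc2 joined without KO replicate 3. Brd2, Kdm5c and Smarcc2 joined without KO replicate 8 or flox replicate 5, with Kdm4b as well without flox replicate 6. Dnmt1, Kdm5c and Smarcc2 joined without flox replicate 9, with Kdm4b as well without flox replicate 7. Without flox replicate 2, all but Arid1b and Kdm5d passed.

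With the replicate number as a block 0 higher and 0 lower members passed limma, 8 of 12 had an unadjusted p under 0.05, and 5 higher and 4 lower of all listed genes passed. The numbers showed no pairing, since the 6 same-numbered pairs had correlations of their deviations from -0.43 to 0.37 and only number 3 matched best with itself. A pseudocount of 0.5 gave 2 and 5, and the other pseudocount, no filter on low values and edgeR on all recovered reads gave 3 and 5. The total depth is unknown, and Hdac9, with few reads, is the member that depth limits most.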
